A study of Saccharomyces cerevisiae with 21 samples.

Results

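The small ribosomal subunit of Saccharomyces cerevisiae contains proteins of the Rps series, and most of their genes are interrupted by an intron. The account below covers 31 of these intron-containing genes among 6571 coding sequences quantified in each library. They are the annotated small-subunit ribosomal protein genes with an intron, leaving out RPS9A, RPS9B, RPS14A, RPS14B and RPS22B. RPS13 has no second copy, and the other 30 genes form 15 pairs of copies from an ancient genome duplication. Poly-A RNA was sequenced in 21 libraries, 3 from each of 7 groups. At low density the groups were wildtype and a strain with a humanized yeast U1-C protein, both at an OD600 of about 0.4, and a Luc7 triple mutant, labelled low OD without a value. Wildtype (OD600 of about 5) and humanized cells (about 8) had been sequenced before at high density. A Luc7 degron strain was sampled without IAA, called undepleted here, and after 6 hours with beta-estradiol and IAA, called depleted here. The labels do not say which residues were changed in the humanized protein or in the triple mutant, whether a strain was a single clone, which group grew in YPD and which in dropout medium, or whether undepleted cells received beta-estradiol.

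Nuclear introns are removed by the spliceosome, which first recognises the 5′ splice site at the start of an intron through base pairing with the U1 snRNP. U1-C, encoded by YHC1, and Luc7 are U1 snRNP proteins that act at this step. A minority of yeast genes contain an intron, but ribosomal protein genes are transcribed so strongly that they supply a large share of all introns the cell splices. Transcription of ribosomal protein genes is tied to growth through Rap1, Fhl1, Ifh1 and Sfp1 and falls when nutrients run out.

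The splice signals of the 31 introns are shown because they are what U1 and the branch-binding proteins read. The first 6 intron bases were GTATGT in 22 genes, GTACGT in 6 (among them RPS19A, RPS19B, RPS21B, RPS30A and RPS30B) and GTATGA in 3 (among them RPS6A). Among all 269 annotated intron genes the same letters were found in 194, 25 and 8. In the RPS6 and RPS21 pairs the copies differed in this signal, and the first 10 bases of their introns are given from the RefSeq R64 (sacCer3) genome, 5′ to 3′, with the 5′ splice site in capitals.
RPS6A (YPL090C, chrXVI:378380-378389, minus strand): GTATGAttta
RPS6B (YBR181C, chrII:592759-592768, minus strand): GTATGTaata
RPS21A (YKR057W, chrXI:551681-551690, plus strand): GTATGTtcga
RPS21B (YJL136C, chrX:157240-157249, minus strand): GTACGTaaat

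The branch site was TACTAAC in 30 of the 31 introns. RPS21A was the exception with AACTAAC, a form found in 9 of the 269 intron genes against 221 with TACTAAC. The ends of 4 introns are given from 15 bases before the branch site to the last base, with the branch site and the 3′ splice site in capitals. They belong to the pair RPS21, whose copies had different changes after depletion, and to the pair RPS27, whose copies had like changes.
RPS21A (YKR057W, chrXI:551961-552002, plus strand): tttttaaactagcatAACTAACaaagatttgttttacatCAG
RPS21B (YJL136C, chrX:156790-156836, minus strand): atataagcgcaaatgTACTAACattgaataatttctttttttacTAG
RPS27A (YKL156W, chrXI:158913-158966, plus strand): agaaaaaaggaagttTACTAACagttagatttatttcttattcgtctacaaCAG
RPS27B (YHR021C, chrVIII:148117-148192, minus strand): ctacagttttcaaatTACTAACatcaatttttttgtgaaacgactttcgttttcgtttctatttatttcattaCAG

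Each of the 31 genes had 1 intron in its coding sequence, 256 to 551 bases long with a median of 401, while the median first intron of all 269 intron genes was 143 bases. In 8 genes (among them RPS24A, RPS24B, RPS27A, RPS27B, RPS30A and RPS30B) the intron began right after the start codon, 3 coding bases into the gene. The distance from the branch adenosine to the intron end ran from 19 to 82 bases, the latter in RPS4A. The 2 copies of a pair were 84.3% (RPS27) to 99.2% (RPS6) identical over the coding sequence. In 8 of the 15 pairs they encoded the same protein. RPS7A and RPS7B differed at 23 residues, more than any other pair. Reads that match both copies were divided by estimation, so the division within a pair is less certain than the sum of the pair, above all in RPS6, whose copies differed at 6 of 711 bases.

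Libraries held 28.5 to 46.8 M assigned reads. Nothing in the labels says that replicates were separate cultures, so the p-values measure the spread between these libraries, which may be technical. YHC1 had 31.5 to 36.7 CPM (reads per M assigned reads) in wildtype and 27.3 to 29.7 in humanized cells at low density, where only sequence matching the yeast gene could be counted (−0.30 ± 0.067, adjusted p = 0.0279, edgeR). LUC7 rose in the same humanized cells (+0.37 ± 0.091, adjusted p = 0.0389, edgeR). It had 83.8 to 136 in undepleted and 116 to 168 in depleted cells. The degron acts on the protein, so LUC7 RNA does not check the depletion. URA3 had 636 to 696 CPM in low-density wildtype libraries and was listed at 0 in those of the triple mutant, whereas LEU2 was at 0 in wildtype and at 512 to 862 in the triple mutant, so differences in strain background or medium cannot be told apart from the triple mutation. Cytosolic ribosomal proteins took 15.9 to 18.1% of reads in wildtype at low density, and replicate 2 held the 18.1%. Of the 31 genes 30 had their highest wildtype value at low density in that library.

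Per coding length, the 31 genes differed 6.66-fold in their level in wildtype at low density. RPS10A, whose protein sits at the beak of the subunit, was highest with 6158 ± 307 TPM (the deposited transcript abundance, scaled by effective length; mean ± SD, n = 3). RPS21B followed with 5542 ± 130.4 TPM, RPS13 with 4983 ± 471 and RPS21A with 4152 ± 157. RPS7B was lowest with 925 ± 13.3 TPM, below RPS30B (1057 ± 116), RPS24B (1577 ± 37.6) and RPS27A (1629 ± 57.7). The order is firm only between distant ranks: in 23 of 30 pairs of neighbouring ranks the 3 libraries of both genes overlapped. RPS10A did not overlap RPS21B, and RPS30B did not overlap RPS7B. For the shortest genes a level per length rests on small effective lengths, the length over which the quantifier counts fragments after its corrections. That length was 28 to 34 bases for RPS30A, whose coding sequence has 192 bases, over the low-density groups.

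**Figure D1:**
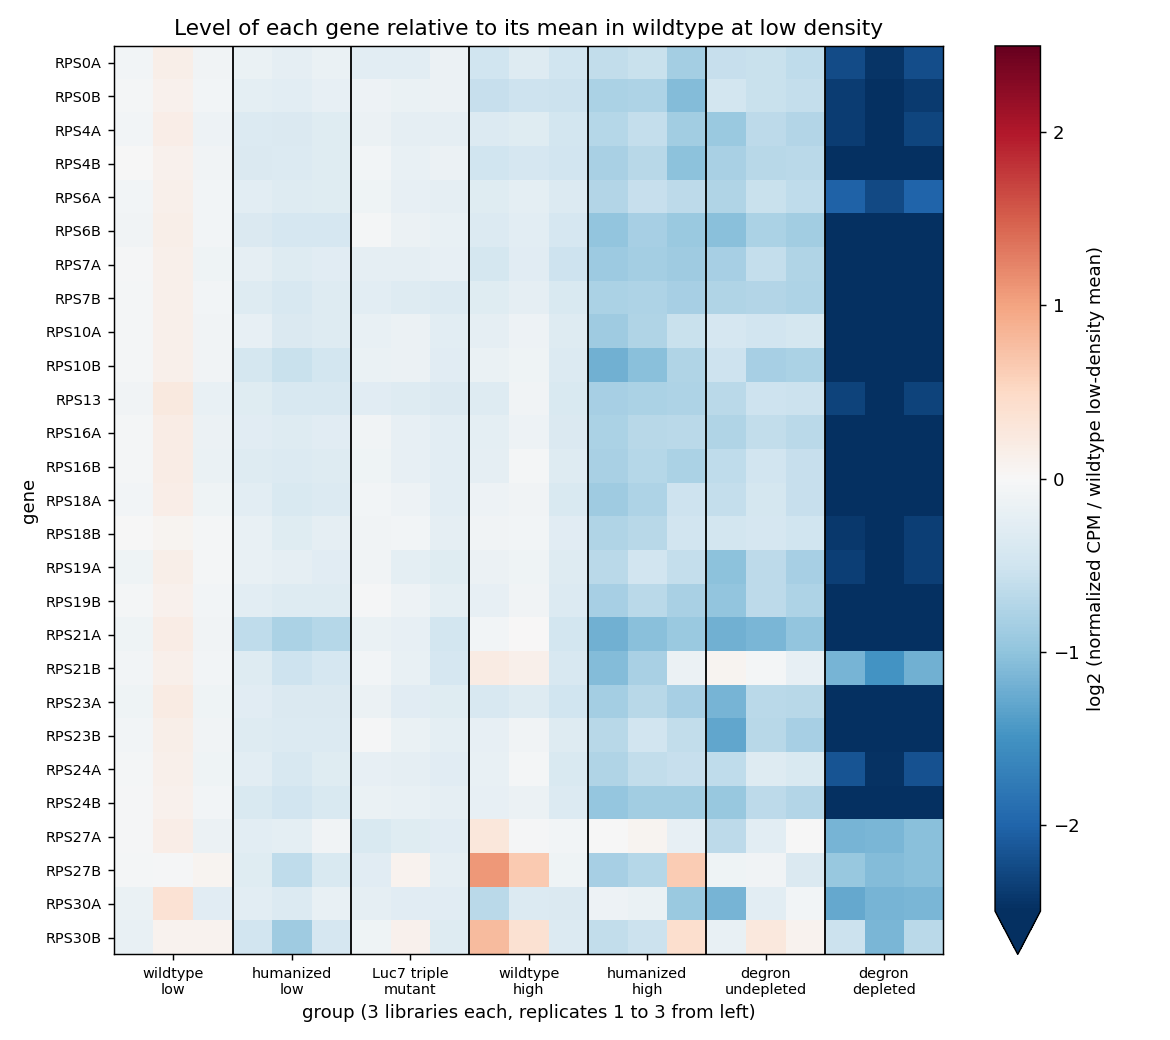
Level of 27 of the 31 genes (rows) in each of the 21 libraries (columns, 3 per group), as the log2 ratio of normalized CPM to the gene's mean in wildtype at low density. Blue is lower and red higher; colours reach their limit at −2.5 and 2.5, and in the depleted libraries most genes lie at or below the lower limit. RPS27A, RPS27B, RPS30A, RPS30B and RPS21B stay lighter there, and RPS27B and RPS30B vary most at high density.

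The 31 genes took 3.19 to 3.55% of assigned reads in wildtype at low density, 2.70 to 2.82% in humanized cells and 2.82 to 3.04% in the triple mutant. Neither mutant overlapped wildtype. At high density the share was 2.80 to 3.32% in wildtype and 2.29 to 2.49% in humanized cells, again without overlap. It was 2.39 to 2.64% in undepleted and 0.662 to 0.824% in depleted degron cells, a mean 3.29-fold lower. The 20 small-subunit genes without an intron took 2.37 to 2.53% and 0.895 to 1.05% of reads in the same libraries, a mean 2.43-fold lower. Mean shares were 1.20-fold lower in humanized cells than in wildtype at low density for the intron genes and 1.09-fold for those without, 1.28-fold and 1.198-fold at high density, and 1.13-fold for both in the triple mutant. In these bulk samples fewer transcripts of these genes per cell and more of all others cannot be told apart.

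**Figure D2:**
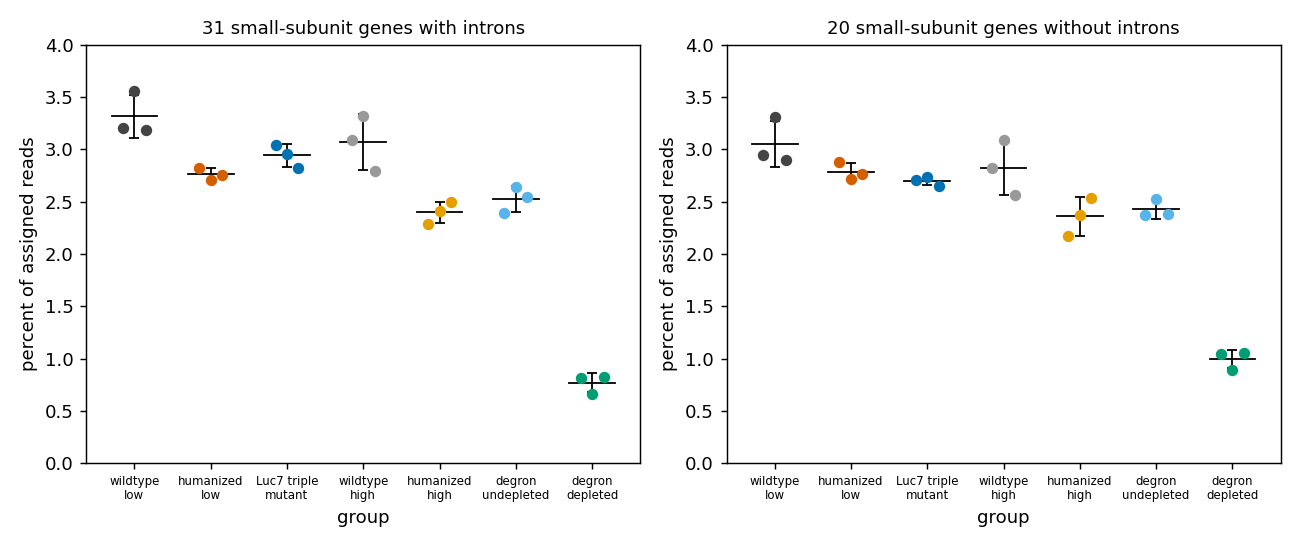
Percent of assigned reads on the 31 small-subunit genes with introns (left) and on the 20 without (right), with 1 point per library, the mean as a line and the SD as a bar. On the left the 3 depleted libraries lie between 0.662 and 0.824% and those of the other groups lie between 2.29 and 3.55%.

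The first comparison asked how humanized cells differed from wildtype at low density. Of the 31 genes 26 were lower and none was higher at an adjusted p below 0.05 (edgeR quasi-likelihood test, Benjamini-Hochberg over 6107 genes tested), where 3.88% of all genes tested were called lower and 2.67% higher. All 31 had passed the filter on low counts. Log2 fold changes ran from −0.72 to −0.19 with a median of −0.34, and the median of all genes tested was 0.0011. In 29 of the 31 every humanized library lay below every wildtype library, against 16% of all genes. Summing the reads of both copies gave 13 of 15 pairs lower, which does not depend on how reads were divided within a pair.

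RPS21A encodes a protein that binds Rps0 and is needed for maturation of the small-subunit rRNA, and it had the lowest fold change. It had 399, 488 and 403 normalized CPM (reads per M assigned reads, TMM scaled over all libraries) in wildtype and 277, 248 and 262 in humanized cells. All 3 humanized libraries lay below all 3 wildtype libraries (−0.72 ± 0.093, adjusted p = 0.00180, edgeR, log2 fold change ± SE, n = 3 per group). Its copy RPS21B, at 522, 601 and 527 CPM in wildtype and 439, 384 and 411 in humanized cells, was also lower (−0.43 ± 0.091, adjusted p = 0.0229, edgeR). RPS10B, the copy of the beak protein gene with fewer reads, had 498, 566 and 488 CPM in wildtype and 384, 349.8 and 375 in humanized cells (−0.49 ± 0.065, adjusted p = 0.00203, edgeR), and RPS10A fell too (−0.30 ± 0.068). RPS30B, whose protein lies near the decoding site, had 62.0, 75.8 and 75.0 CPM in wildtype and 50.6, 38.4 and 53.2 in humanized cells (−0.59 ± 0.14, adjusted p = 0.0318, edgeR), so its groups did not overlap. RPS27B, encoding a zinc-finger protein, had 176, 180.1 and 192 CPM in wildtype and 148, 118 and 141 in humanized cells (−0.44 ± 0.11, adjusted p = 0.0334, edgeR). RPS24B fell (−0.42 ± 0.055) and so did RPS6B (−0.41 ± 0.066), one of the copies for the phosphoprotein that responds to TORC1 signalling.

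Among the smallest called changes were those of RPS0B (−0.25 ± 0.053), RPS18B (−0.25 ± 0.058) and RPS7A (−0.28 ± 0.060). Rps18 is a head protein that touches the large subunit, and Rps7 is an early assembly protein. Among the genes not called, RPS0A had 1909, 2199 and 1867 CPM in wildtype and 1772, 1708 and 1778 in humanized cells (−0.19 ± 0.064, adjusted p = 0.0888, edgeR). Its libraries did not overlap. RPS19A (−0.23 ± 0.073, adjusted p = 0.0762, edgeR) had the same sign as its called copy RPS19B (−0.31 ± 0.065). RPS27A (−0.20 ± 0.075) and RPS30A (−0.27 ± 0.13) had no call either. On the TPM scale their changes were +0.024 and +0.000864, where the median of all genes was +0.14, so relative to it they were −0.12 and −0.14. In 11 of 15 pairs the B copy had the more negative change. The count of 26 changed with the libraries kept. It was 7 without humanized replicate 2 or without replicate 3, 14 without wildtype replicate 1 and 17 without humanized replicate 1. Without wildtype replicate 3 it was 31. The share of all genes called in those fits is not given here. A general loss of calls with fewer libraries therefore cannot be told apart from one particular to these genes. The 13 summed pairs were 1 without humanized replicate 2 or without replicate 3, and 6 without replicate 1 of either group. Without wildtype replicate 2, the library rich in ribosomal protein reads, 24 genes were lower and the median was −0.25. With a coding length and GC offset the median was −0.21, limma on TPM called 8 lower with a median of −0.16 (−0.30 relative to all genes), an effective-length offset left 15 lower and a fit of these groups alone 16.

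**Figure D3:**
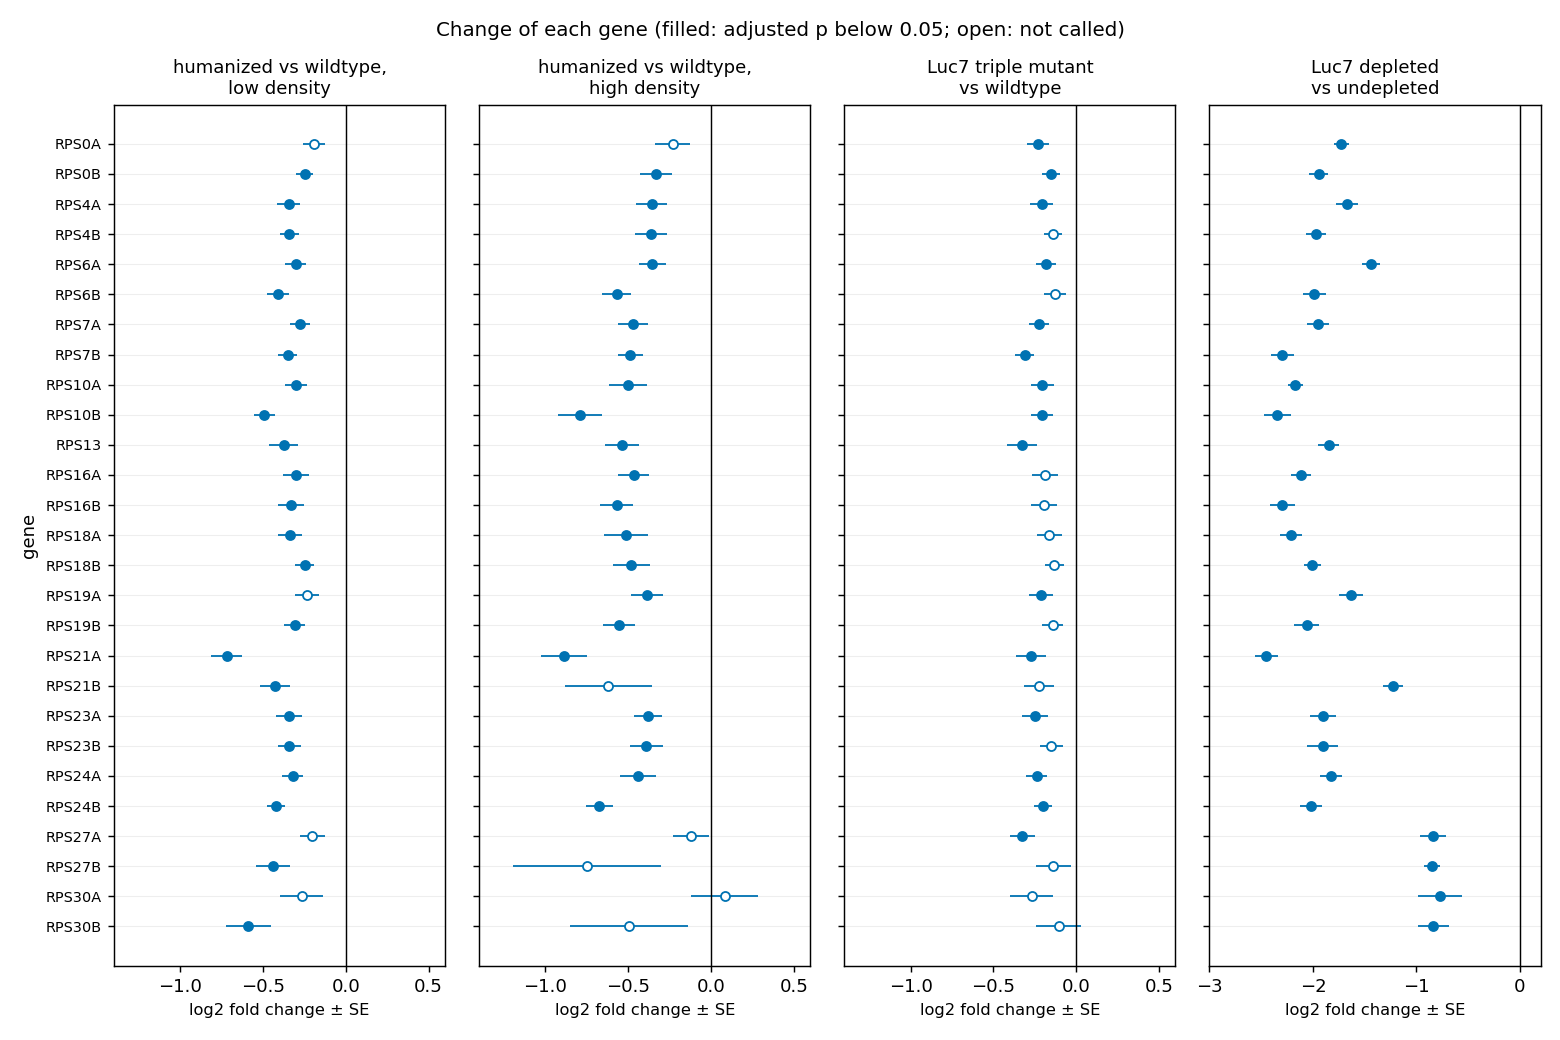
Log2 fold change of 27 of the 31 genes in 4 comparisons (points) with the SE (bars); filled points have an adjusted p below 0.05 in edgeR and open points do not. The scale of the depletion panel is wider than that of the others. In that panel every gene drawn is lower, with RPS21B apart from its copy, and in both humanized panels RPS21A lies farthest left among called genes.

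At high density the same strains were compared in separate libraries, with the humanized cells at a higher OD600 than wildtype. Strain and OD600 therefore cannot be told apart in this comparison. Of the 31 genes 24 were lower and none was higher, where 12.6% of 6119 genes were called lower and 16% higher. In 25 of the 31 the groups lay apart in that direction, against 20.9% of all genes. The median was −0.48 and changes ran from −0.89 for RPS21A to +0.08 for RPS30A, which was not called. RPS21A had 408, 433 and 314 CPM in wildtype and 188, 209.7 and 225 in humanized cells (−0.89 ± 0.14, adjusted p = 0.00433, edgeR). RPS21B had 634, 598 and 418 CPM in wildtype and 260.5, 311 and 496 in humanized cells and its groups overlapped, through wildtype replicate 3 and humanized replicate 3 (−0.62 ± 0.26, adjusted p = 0.119, edgeR). RPS10B had 462, 481 and 411 CPM in wildtype and 224, 250.0 and 306 in humanized cells (−0.79 ± 0.13, adjusted p = 0.00597, edgeR). RPS24B, whose human homolog is mutated in some cases of Diamond-Blackfan anaemia, fell (−0.67 ± 0.082, adjusted p = 0.00170, edgeR) from 445, 466 and 407 to 263, 280.3 and 279.8 CPM without overlap, as did RPS6B (−0.57 ± 0.086). RPS0B (−0.33 ± 0.098), RPS6A (−0.35 ± 0.081), RPS4A (−0.36 ± 0.094) and RPS4B (−0.36 ± 0.098) had the smallest called changes. RPS0A (−0.23 ± 0.10, adjusted p = 0.138, edgeR) was not called while RPS0B was. Of the 4 shortest genes, RPS27A, RPS27B, RPS30A and RPS30B, none was called, and RPS27B had 389, 288 and 171 CPM in the 3 wildtype libraries. The count of 24 was 10 without humanized replicate 1 and 11 without wildtype replicate 1 (3 and 4 of 15 summed pairs), 13 with an offset from the effective lengths, and 3 in limma on TPM, where the median was −0.17 (−0.34 relative to all genes).

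Across both densities 23 of the 31 genes were lower in humanized cells each time, and 4 were called at neither. The 2 experiments share no library, and the changes of the 31 genes had a Spearman rho of 0.70 between them, given without a test because the genes share libraries. The difference between the 2 densities was tested as an interaction, and none of the 31 genes was called in edgeR, where 17.9% of 6150 genes were. At an unadjusted p below 0.05 there was 1 (RPS24B, −0.25 ± 0.10, named after its value was seen), and DESeq2 called 1. A coding length and GC offset gave 7 lower. The interaction of RPS21A was −0.16 ± 0.18, adjusted p = 0.585 (edgeR). Density and experiment cannot be told apart here, nor can strain and the unequal OD600 of the high-density groups.

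The Luc7 triple mutant was compared with the same low-density wildtype libraries. Of the 31 genes 19 were lower and none was higher, beside 26.5% of all 6107 genes called lower and 28.3% higher. In 20 of the 31 every mutant library lay below every wildtype library, against 30.1% of all genes. Changes ran from −0.33 to −0.11 with a median of −0.21. RPS13, the single-copy gene of a protein in the subunit body, had 1918, 2395 and 1779 CPM in wildtype and 1675, 1619 and 1588 in the mutant (−0.33 ± 0.090, adjusted p = 0.0106, edgeR). RPS7B had 600.1, 676 and 592 CPM in wildtype and 521, 498 and 494 in the mutant (−0.31 ± 0.056, adjusted p = 0.00101, edgeR). In both genes the groups did not overlap. RPS27A was lower (−0.33 ± 0.075) while RPS27B, whose mutant libraries spread from 151 to 194 CPM, was not called (−0.14 ± 0.10, adjusted p = 0.283, edgeR). RPS21A was lower (−0.27 ± 0.092, adjusted p = 0.0273, edgeR) and RPS21B had a similar change without a call (−0.22 ± 0.091, adjusted p = 0.0553, edgeR).

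A single copy was called in 4 further pairs in the triple mutant. RPS4A (−0.21 ± 0.069), RPS6A (−0.18 ± 0.062), RPS19A (−0.21 ± 0.073) and RPS23A (−0.25 ± 0.079) were lower, and RPS4B (−0.14 ± 0.056), RPS6B (−0.13 ± 0.066), RPS19B (−0.14 ± 0.065) and RPS23B (−0.15 ± 0.071) were not called. Rps4 is an rRNA-binding protein and Rps23 lines the decoding centre and bears on translational accuracy. The smallest called changes were RPS0B (−0.15 ± 0.053), RPS6A, RPS24B (−0.20 ± 0.055) and RPS10A (−0.20 ± 0.068). With both copies summed 11 of 15 pairs were lower. On the TPM scale 4 of the 31 genes were lower with a median of −0.065, and the median of all genes was +0.13. RPS0B, RPS4B, RPS6A, RPS6B and RPS23B were between +0.013 and +0.069 there without a call, and relative to the median of all genes 31 of 31 genes were negative (median −0.19). A coding length and GC offset left 7 of 31 lower, and leaving out triple mutant replicate 3 left 9 (4 of 15 summed pairs). Without triple mutant replicate 2, 6 summed pairs were lower.

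Compared with humanized rather than wildtype cells, the triple mutant had 7 of the 31 genes higher and none lower, beside 17.8% of all genes called higher and 16.1% lower, so the share of these genes (7 of 31) was near that of all genes. RPS21A had 277, 248 and 262 CPM in humanized cells and 383, 375 and 314 in the triple mutant (+0.45 ± 0.093, adjusted p = 0.00397, edgeR), and the groups did not overlap. RPS30B (+0.48 ± 0.14, adjusted p = 0.0188, edgeR), RPS27B (+0.30 ± 0.10, adjusted p = 0.0456, edgeR) and RPS10B (+0.29 ± 0.065, adjusted p = 0.00624, edgeR) were higher too. RPS6B (+0.28 ± 0.066), RPS24B (+0.22 ± 0.055) and RPS4B (+0.20 ± 0.056) completed the list, so each of the 7 was a single copy of its pair. The A copies RPS4A (+0.14 ± 0.069), RPS6A (+0.12 ± 0.062), RPS10A (+0.099 ± 0.068), RPS24A (+0.084 ± 0.064), RPS27A (−0.12 ± 0.075) and RPS30A (−0.0021 ± 0.13) and the B copy RPS21B (+0.20 ± 0.091) were not called. Summed pairs gave 1 of 15 higher. The count of 7 was 4 without humanized replicate 2, 4 with an offset from the effective lengths, 13 with a coding length and GC offset and 14 in a fit of these groups alone. RPS27A was lower under both offsets (−0.22 each, adjusted p = 0.0317 and 0.00883, edgeR).

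The comparison of depleted with undepleted degron cells gave the lowest median of the comparisons. Depleted cells had been treated for hours with IAA and beta-estradiol, and no group had this treatment without the degron. Effects of the chemicals, of time or of growth therefore cannot be told apart from loss of Luc7. LEU2 also fell in depleted cells (−1.91 ± 0.17, adjusted p = 3.81e-06, edgeR), while YHC1 rose (+0.34 ± 0.077, adjusted p = 0.00258, edgeR). All 31 genes were lower in depleted cells, beside 34.3% of 6156 genes tested, with a median of −1.94 and a range from −2.47 to −0.77, the latter for RPS30A. In 30 of the 31 no depleted library reached any undepleted one, against 36.7% of all genes. The exception was RPS30A, with 97.0, 181 and 206 CPM in undepleted and 89.1, 97.4 and 97.6 in depleted cells (−0.77 ± 0.21, adjusted p = 0.00893, edgeR). Summed pairs were lower in 15 of 15. The 31 calls held when any single library was left out, with medians from −2.00 to −1.85, and limma on TPM gave a median of −1.67 (−1.95 relative to all genes, whose median was +0.28) and 30 of 31 lower, the exception being RPS30A (−0.40, adjusted p = 0.133). Depleted replicate 2 was the lowest depleted library for 29 of the 31 genes.

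RPS21A, with its AACTAAC branch site, had 186, 195 and 218 CPM in undepleted and 40.3, 30.1 and 39.5 in depleted cells (−2.45 ± 0.11, adjusted p = 6.98e-08, edgeR). RPS21B had 579.8, 528 and 477 CPM in undepleted and 246, 195 and 238 in depleted cells (−1.23 ± 0.10, adjusted p = 2.35e-06, edgeR). RPS21A had the fewest CPM of the 31 genes in each depleted library, a scale that takes no account of its short coding sequence. Per effective length it was not the lowest in depleted cells, with a mean of 622 TPM against 192 for RPS7B. RPS21B kept a larger part of its level than RPS21A did. The A copy held 24.3 to 31.4% of the pair's reads in undepleted and 13.4 to 14.2% in depleted cells. RPS6A, with GTATGA, fell (−1.44 ± 0.087, adjusted p = 3.08e-07, edgeR) and so did RPS6B, with GTATGT (−1.99 ± 0.11, adjusted p = 1.75e-07, edgeR). RPS6A held 58.2 to 59.0% of their reads in undepleted and 66.8 to 68.6% in depleted cells, without overlap.

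Among proteins of the beak and head, RPS10B had 361, 291 and 298 CPM in undepleted and 71.6, 50.4 and 65.5 in depleted cells (−2.34 ± 0.13, adjusted p = 1.79e-07, edgeR), and RPS10A fell by a similar amount (−2.17 ± 0.076). Rps16 reaches with its tail toward the P-site tRNA, and RPS16A (−2.11 ± 0.093) and RPS16B (−2.29 ± 0.12) both fell. RPS18A (−2.21 ± 0.11) and RPS18B (−2.00 ± 0.081) fell as well. RPS19A (−1.63 ± 0.11) and RPS19B (−2.06 ± 0.12) fell, and the A copy held 39.4 to 40.1% of the pair before and 46.3 to 47.6% after, without overlap. Human RPS19 is the gene most often mutated in Diamond-Blackfan anaemia.

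RPS7B, for an early assembly protein, had 370.4, 375 and 364 CPM in undepleted and 84.2, 60.3 and 82.0 in depleted cells (−2.30 ± 0.11, adjusted p = 1.04e-07, edgeR), and RPS7A fell too (−1.95 ± 0.11). RPS0A (−1.72 ± 0.076) and RPS0B (−1.94 ± 0.091) encode the partner of Rps21, needed for late maturation of the subunit. RPS4A (−1.67 ± 0.10), RPS4B (−1.97 ± 0.099) and RPS13 (−1.85 ± 0.098) fell as well. So did RPS23A (−1.90 ± 0.12) and RPS23B (−1.91 ± 0.15) of the decoding centre, and RPS24A (−1.83 ± 0.11) and RPS24B (−2.02 ± 0.10).

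The 4 shortest genes had the smallest falls. RPS27A had 105, 137 and 162 CPM in undepleted and 73.0, 74.2 and 79.3 in depleted cells (−0.84 ± 0.13, adjusted p = 0.000215, edgeR), and RPS27B had 169, 172 and 143 CPM in undepleted and 94.3, 86.3 and 88.6 in depleted cells (−0.85 ± 0.077, adjusted p = 5.36e-06, edgeR). RPS30B had 62.3, 85.3 and 75.5 CPM in undepleted and 48.6, 32.3 and 44.4 in depleted cells (−0.84 ± 0.15, adjusted p = 0.000643, edgeR). The median of these 4 genes, with coding sequences of 192 or 249 bases, was −0.84 and that of the other 27 was −1.97. RPS27A and RPS27B had like changes, and their intron ends, shown above, differ in length and letters. With an offset from the deposited effective lengths the 4 changes ran from −0.81 to −0.73, and with a coding length and GC offset from −0.93 to −0.82, so the calls held under both. In limma on TPM they were smaller, from −0.55 to −0.40 (−0.82 to −0.68 relative to all genes), and RPS30A lost its call. Effective lengths were lower in the same libraries, for RPS27A 47.4 to 48.3 bases in undepleted and 41.9 to 44.3 in depleted cells, and their part in the result beyond this offset was not tested.

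**Figure D4:**
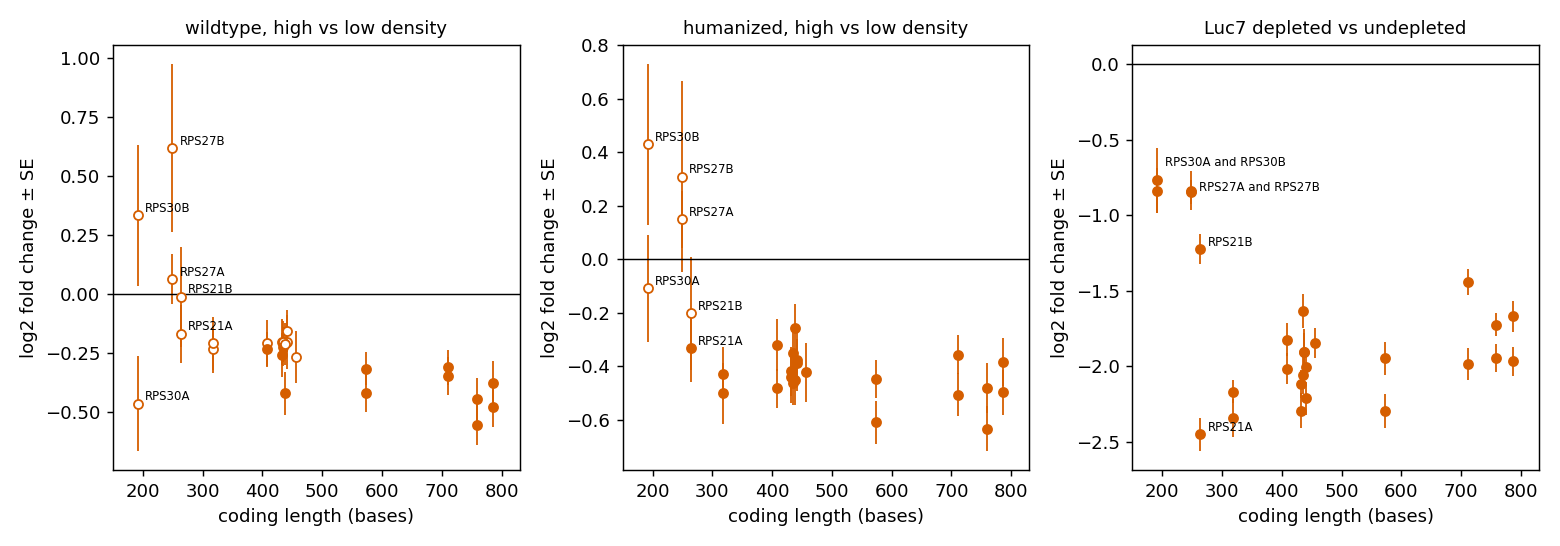
Log2 fold change (points) with SE (bars) of 27 of the 31 genes against coding length in bases, for density in wildtype (left), density in humanized cells (middle) and depletion (right); filled points have an adjusted p below 0.05 in edgeR. In the right panel RPS27A, RPS27B, RPS30A and RPS30B lie between −0.85 and −0.77, and RPS21B lies above its copy. The vertical scales differ.

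The comparisons of density asked how the genes differed between the 2 experiments within a strain. In wildtype 15 of the 31 genes were lower and none higher at high density, beside 22.7% of 6150 genes called lower and 20.9% higher, with a median of −0.24. RPS0B had 2183, 2424 and 2132 CPM at low and 1513, 1571 and 1540.4 at high density (−0.56 ± 0.084, adjusted p = 0.000223, edgeR), and RPS4B (−0.48 ± 0.083), RPS0A (−0.45 ± 0.093) and RPS23A (−0.42 ± 0.091) were next. RPS16A (−0.26 ± 0.093), RPS24B (−0.24 ± 0.073) and RPS19B (−0.22 ± 0.083) were among the smallest called changes. RPS23B (−0.21 ± 0.089), RPS16B (−0.21 ± 0.098), RPS24A (−0.21 ± 0.097) and RPS19A (−0.20 ± 0.088) were not called although their copies were. The count of 15 was 10 without low-density replicate 2, with a median of −0.15, 26 with an offset from the effective lengths and 26 with a coding length and GC offset.

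In humanized cells 26 of the 31 genes were lower and none higher at high density, beside 26.7% and 27.7% of all genes, with a median of −0.42. RPS0B had 1895, 1869 and 1936 CPM at low and 1292, 1320.2 and 1057 at high density (−0.63 ± 0.084, adjusted p = 5.08e-05, edgeR). RPS7A (−0.61 ± 0.082) and RPS6B (−0.51 ± 0.080) were also among the lowest, and RPS23B (−0.26 ± 0.089), RPS24A (−0.32 ± 0.097) and RPS21A (−0.33 ± 0.12) were among the smallest called changes. RPS21B (−0.20 ± 0.21, adjusted p = 0.442, edgeR) and the 4 shortest genes were not called. In limma on TPM 17 genes were lower and 1 was higher, with a median of −0.19 (−0.43 relative to all genes).

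The medians of the 4 shortest genes for density depended in their size on single libraries. They were +0.20 in wildtype and +0.23 in humanized cells, against −0.26 and −0.44 for the other 27. Over the 31 genes Spearman's rho with coding length was −0.65 in wildtype and −0.63 in humanized cells, and −0.15 for depletion. Without humanized high-density replicate 3 the humanized median of the 4 was +0.043, that of the other 27 was −0.45 and rho was −0.18. Without wildtype high-density replicate 1 the wildtype median of the 4 was +0.0085, that of the other 27 was −0.24 and rho was −0.68. These are descriptions without a test, since the genes share libraries and read depth. RPS27B had 176, 180.1 and 192 CPM in wildtype at low density and 389, 288 and 171 at high density (+0.62 ± 0.36, adjusted p = 0.178, edgeR), and RPS30B had 62.0, 75.8 and 75.0 CPM at low density and 122, 92.0 and 55.98 at high density (+0.33 ± 0.30, adjusted p = 0.386, edgeR). In both genes wildtype high-density replicate 1 was highest and replicate 3 lowest of its group. In humanized cells at high density RPS27B had 103, 111 and 286 CPM and RPS30B 46.0, 48.6 and 95.4, with replicate 3 highest for both. The median ratio of effective to coding length over the 31 genes was 0.373 to 0.410 in wildtype at low and 0.408 to 0.502 at high density, and in humanized cells 0.368 to 0.392 and 0.315 to 0.499. In humanized cells the mean ratio was 0.379 at low and 0.383 at high density. At high density the ratio was highest in wildtype replicate 1 (0.502) and humanized replicate 3 (0.499). In these libraries RPS27B and RPS30B were also highest of their groups. The part of effective lengths in these changes, beyond the offset from them, was not tested.

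The division of reads between the 2 copies differed by pair. The RPS16 and RPS18 pairs were near an even split, and RPS7A, RPS24A, RPS10A and RPS30A held most of their pairs. RPS10A had 65.3 to 65.7% of its pair in wildtype and 67.8 to 68.99% in humanized cells at low density, and 64.5 to 65.6% and 68.6 to 70.4% at high density, so the A copy's share was higher in every humanized library. RPS24A behaved alike, with 71.5 to 72.2% and 73.0 to 73.6% at low and 71.2 to 73.0% and 74.8 to 75.9% at high density. RPS6A held 54.0 to 54.8% and 55.9 to 56.2%, then 54.4 to 55.5% and 58.5 to 58.7%. Of the 15 pairs 5 separated the strains at both densities without overlap and in the same direction, these 3 with RPS16 and RPS19, by 0.50 to 4.52 percentage points. At low density 10 pairs were apart in all, these 5 among them, and at high density only these 5. Copy pairs outside the 15 were not examined, so no background share stands beside these counts. RPS21A went the other way at low density, with 43.3 to 44.8% in wildtype and 38.6 to 39.3% in humanized cells, and its high-density groups overlapped, at 39.2 to 42.9% and 31.2 to 41.9%.

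**Figure D5:**
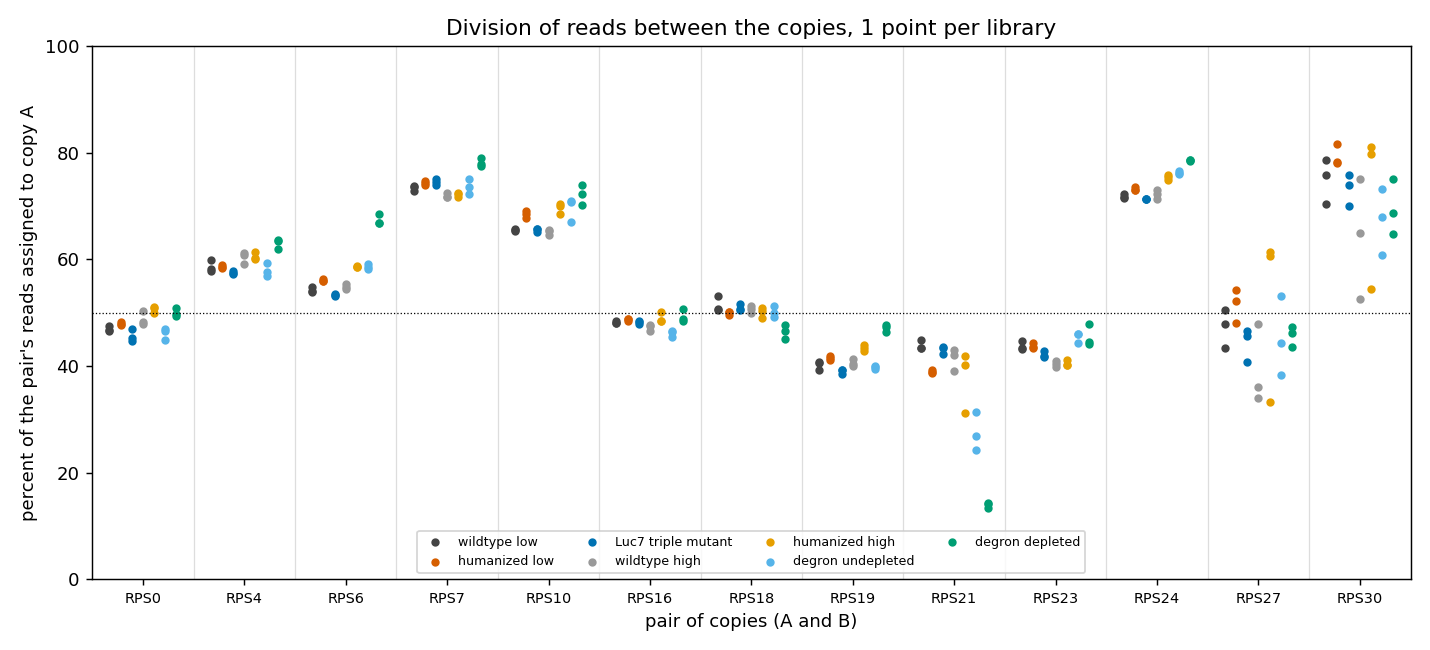
Percent of each pair's assigned reads on the A copy (vertical axis) for 13 of the 15 pairs (horizontal axis), with 1 point per library coloured by group and a dotted line at 50%. The depleted libraries stand farthest apart in RPS6 (66.8 to 68.6%) and RPS21 (13.4 to 14.2%). They also lie outside all other libraries in RPS4, RPS7, RPS18, RPS19 and RPS24. The points of RPS27 and RPS30 spread widest within groups.

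With 3 libraries against 3 an exact two-sided permutation test of such a share cannot go below p = 0.10, so groups without overlap are described and not called. Undepleted degron cells already differed from wildtype in RPS21: the A copy held 24.3 to 31.4%, against 43.3 to 44.8% in wildtype at low density. The strain, its medium and any effect of the tag without IAA cannot be told apart there. The shares of the shortest genes spread most within a group: RPS27A held 33.3 to 61.3% of its pair in humanized cells at high density and RPS30A 52.7 to 75.1% in wildtype at high density.

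By 5′ splice site, the 22 genes with GTATGT had a median of −1.98 after depletion, the 3 with GTATGA −1.44 and the 6 with GTACGT −1.43. The last group includes RPS30A and RPS30B and ran from −2.06 for RPS19B to −0.77, and the GTATGA genes ran from −2.47 to −1.20. The classes therefore overlapped. In humanized cells at low density the same classes had medians of −0.34, −0.30 and −0.33, and in the triple mutant −0.20, −0.22 and −0.22. The change of the 31 genes had a Spearman rho with intron length of −0.017 in humanized cells at low density, −0.37 at high density and −0.074 after depletion, described without a test. Upstream of the genes, the letters ACCCNNACA, part of the Rap1 binding motif, were found on either strand within 500 bases of the start codon in 15 of the 31 genes, in 3 of 20 small-subunit genes without an intron and in 322 of 5874 genes (5.48%).

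Other lists place these values. Of the 20 small-subunit genes without an intron, 3 were lower in humanized cells at low density (median −0.20), 7 at high density (−0.41), 13 in the triple mutant (−0.20) and 20 after depletion (−1.53). The 5 intron genes left out had 4, 3, 5 and 5 lower in the same order, with medians of −0.44, −0.39, −0.63 and −1.66. The 53 large-subunit genes with an intron had 40 lower and 1 higher in humanized cells at low density (−0.35), 43 lower at high density (−0.55), 35 in the triple mutant (−0.21) and 53 after depletion (−1.90). The difference between lists was not tested. Among 10 regulators of the transcription of ribosomal protein or ribosome biogenesis genes none was called in humanized cells at low density (median +0.10). In humanized cells at high density none was lower and 3 were higher (+0.25), beside 16% of all genes called higher. In the triple mutant 3 were lower and 2 higher (+0.12), beside 26.5% and 28.3% of all genes. After depletion 6 were lower, beside 34.3% of all genes, and 3 higher. There TOD6 (−0.81 ± 0.066) fell most and CRF1 rose (+0.60 ± 0.075). Of 17 small-subunit assembly factors none was called in humanized cells at low density (−0.13), 15 were lower in the triple mutant (−0.42) and 13 after depletion (−0.33), where BUD22 fell most (−0.63 ± 0.060).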

How the data were processed

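Poly-A RNA from 21 yeast libraries was sequenced, 3 for each of 7 groups. The submitters' processing notes name cutadapt, without a version, Salmon 1.9 and the sacCer3 build. The authors deposited, for each of 6571 coding sequences, an estimated count, TPM and an effective length. TPM was computed by the authors' Salmon run per effective length, per the file headers, so it takes account of that length, which counts do not. For strand and bias settings nothing is given in the sources used here. Tables hold coding sequences without introns, so splicing itself was not measured.

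Estimated counts were rounded and tested with edgeR 4.0.16 (R 4.3.3; TMM, filterByExpr with a minimum count of 10, quasi-likelihood F test) over all genes, and genes were called where the Benjamini-Hochberg p was under 0.05. Low-density wildtype, humanized and triple mutant libraries shared a fit, and the density comparisons and their interaction used both strains at both densities. The SE is the log2 fold change divided by the square root of F. Normalized CPM values were scaled with TMM over all 21 libraries. Pairs were also tested on the summed counts of both copies. Of the sequences 5895 matched the RefSeq R64 annotation, from which introns and splice signals were taken. The intervals and errors given cover the spread between libraries only. The scripts were tested on simulated data.

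The members and the lists were chosen with earlier results of these data known. In each comparison the named genes were the up to 4 called members with the lowest and the highest changes, both copies of any pair with a single called copy, and, of other lists, the called genes with the extreme changes. Alternatives were DESeq2 1.42.0, its size factors, TMM without cytosolic ribosome genes, no count filter, limma-trend 3.58.1 on log2(TPM + 1) of genes with a mean TPM of 1 or more, offsets for effective length or for coding length and GC content (splines with 4 degrees of freedom), fits of the compared groups alone, a replicate block, shares from TPM and leaving out each library. In 21 comparisons of replicates within a group, chi-square per sequence was 6.10 to 117, so no library was a repeat deposit of another in its group. Libraries of different groups were not compared in this way. Some members are not reported by name here, and the counts, medians and ranges over all 31 genes include them; figures of single genes leave them out.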

Additional observations from a re-analysis of the deposited data

How the results depend on the processing

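Depletion was the firmest result: 15 of 15 summed pairs were lower under every alternative run and 31 of 31 genes under all but limma on log2(TPM + 1), where RPS30A lost its call (−0.40, adjusted p = 0.133), with medians from −2.00 to −1.85 when a library was left out and −1.67 in limma. On that TPM scale the median of all genes shifted by 0.13 to 0.28 in every comparison but the triple mutant against humanized cells and the interaction, and the values given here still contain that shift. Relative to it the members' medians were −0.30 and −0.34 in humanized cells at low and high density, −0.19 in the triple mutant, −1.95 after depletion, and −0.36 and −0.43 for density in wildtype and humanized cells. It gave 8 members lower (median −0.16) and 4 pairs in humanized cells at low density, 4 members (−0.065) and 2 pairs in the triple mutant, 1 member lower and 4 pairs higher in the triple mutant against humanized cells, 3 members (−0.17) and 2 pairs in humanized cells at high density, 1 member and 1 pair higher for density in wildtype, 17 members lower, 1 higher (−0.19) and 7 pairs lower for density in humanized cells, and an interaction median of −0.00886. The coding length and GC offset gave medians of −0.21 in humanized cells at low and −0.36 at high density, 7 members and 6 pairs lower in the triple mutant, 1 member lower, 13 higher and 5 pairs higher against humanized cells, 26 members and 14 pairs lower for density in wildtype, and 7 members and 3 pairs lower in the interaction. The offset from effective lengths gave 15 members and 6 pairs, 13 members (−0.35) and 7 pairs in the humanized comparisons at low and high density, 1 member lower, 4 higher and 2 pairs higher in the triple mutant against humanized cells, 26 members and 12 pairs lower for density in wildtype and an interaction median of −0.032. Fits of the compared groups alone gave 16 members and 8 pairs in humanized cells at low density, 7 pairs in the triple mutant, and 14 members and 5 pairs higher against humanized cells. DESeq2 gave 1 member lower in the interaction, 3 pairs higher in the triple mutant against humanized cells and 11 pairs lower for density in wildtype. Its size factors, TMM from genes outside the ribosome and no filter each gave 2 pairs higher in the triple mutant against humanized cells. The cause of these differences was not tested. The shares of all genes called under each alternative or with a library left out are not given here. A general loss or gain of calls therefore cannot be told apart from one particular to these genes.

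Same-numbered libraries had correlations from −0.508 to 0.628 and no comparison had all 3 above 0.1. Between wildtype at high and low density they were 0.63 for replicate 2 and 0.55 for replicate 3. Pairing by number is therefore neither shown nor excluded. With the replicate block 16 members and 7 pairs were lower in humanized cells at low density, and other counts stayed within 1.5 times.

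Leaving out 1 library gave 7 to 31 members lower in humanized cells at low density (medians −0.38 to −0.25; pairs 1 to 15), 9 to 28 in the triple mutant (−0.26 to −0.15; pairs 4 to 15), 4 to 9 higher against humanized cells (0.094 to 0.15; pairs 0 to 1), 10 to 24 lower in humanized cells at high density (−0.53 to −0.40; pairs 3 to 12), 10 to 21 for density in wildtype (−0.30 to −0.15; pairs 4 to 10 lower, 0 to 1 higher), 21 to 27 in humanized cells (−0.45 to −0.39; pairs 11 to 13) and 0 to 2 in the interaction (−0.24 to −0.058).

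Of the values of named members under the alternatives, 1070 kept direction and call, 182 lost the call, 67 gained it and 11 changed sign. On the TPM scale RPS27A (+0.024) and RPS30A (+0.000864) changed sign in humanized cells at low density, as did RPS6A (+0.013), RPS0B (+0.024), RPS4B (+0.040), RPS6B (+0.069) and RPS23B (+0.014) in the triple mutant. Relative to the median of all genes these 7 were −0.14 to −0.061. In the triple mutant against humanized cells RPS10A was −0.00121 with effective lengths, and RPS30A, at −0.0021 with all libraries, was +0.039 without humanized replicate 3, +0.00538 without triple mutant replicate 2, +0.012 without replicate 3 and between −0.043 and +0.039 over all such fits. Of 105 shares of the A copy, 21 moved by more than 1 SD when taken from TPM, by −2.91 to 1.97 points at the extremes. Reads shared by both copies limit every statement on a single copy.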
